A study of Mus musculus with 3 samples.

Results

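The genes of cholesterol and fatty acid synthesis were taken by name from the table of expression values, which listed all 40 of them among its 15287 genes. They were 20 enzymes that build sterols, 12 enzymes that build, lengthen or desaturate fatty acids, and 8 genes that control or move sterols. RNA-seq had been run on MC3T3-E1, a wild type preosteoblast line from mouse calvaria, in 3 libraries with 1 library per condition. CTL cells had no treatment. Ti cells were exposed for 24 h to titanium particles at 10 μg/cm2. Ti+Se-Met cells had these particles together with selenomethionine (Se-Met), a selenium-containing amino acid, at 5 μM, over the same 24 h. The particle-treated cells were kept in a medium described as incomplete, and the medium of the CTL cells at collection is not given in the sources used here, so medium and particles cannot be told apart. The comparisons ask what the particles changed in these cells, and what Se-Met changed on top of them.

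Cholesterol is built from acetyl-CoA through mevalonate, isoprenoid units and squalene, and squalene is then closed into a ring and trimmed to cholesterol. Fatty acids are built from the same acetyl-CoA, first as palmitate, which elongases lengthen and desaturases give double bonds. Both routes are under the transcription factors called SREBPs. SCAP escorts them from the endoplasmic reticulum to the proteases that release them, and the INSIG proteins hold them back when sterols are plentiful. SREBP-2 acts mainly on sterol genes and SREBP-1c mainly on fatty acid genes, while LXR, a sensor of oxysterols, raises cholesterol efflux and Srebf1.

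Nearly all sterol enzymes and most fatty acid enzymes were higher with Se-Met on top of particles than with particles alone. This held for 19 of 20 sterol enzymes and 9 of 12 fatty acid enzymes, where 38.5% of all genes were higher. Ti+Se-Met had the highest level of the 3 libraries in 14 of 20 sterol and 3 of 12 fatty acid enzymes. The share of all genes highest there was not counted. These counts also depend on scaling, since Mvk, Dhcr7, Scd1 and Fads2 fell below CTL in Ti+Se-Met after scaling to equal sums (TPM). With particles alone, Elovl6, the elongase that takes palmitate to stearate, stood at 0.291 times its CTL level, and it was the only one of the 40 genes past 2-fold. No condition had a second library, so nothing here carries a replicate check or a p-value, and every difference is one between 2 libraries.

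Levels are FPKM, fragments scaled to transcript length and library total, so they can be compared between genes, while comparisons between libraries depend on the scaling. All 40 genes reached 1 FPKM in at least 1 library, as did 11137 genes in all, and 39 reached it in every library, the exception being Abca1. Where 3 levels stand in a row without names, they are those of CTL, Ti and Ti+Se-Met. Depth was estimated from the steps that single fragments make in low values, at 14250000 fragments (CTL), 14500000 (Ti) and 10450000 (Ti+Se-Met). The 40 genes then rested on 80 to 48623 fragments per library. A fold is the ratio of 2 FPKM values, and the range given with it is its 95% exact conditional binomial interval on those fragments, which covers counting error only. Differences called log2 are in log2(FPKM + 1), and thresholds of 1.2-fold, 1.5-fold and 2-fold were applied on that scale. Over the 11137 genes the median difference was 0.08 in Ti against CTL, 0.01 in the Ti+Se-Met library against CTL, and -0.06 between Ti+Se-Met and Ti. The comparisons share libraries, so a low value in the Ti library alone makes a gene lower in Ti against CTL and higher in Ti+Se-Met against Ti, and the results are given side by side for that reason.

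The osteoblast lineage was checked on 8 markers. The collagen genes Col1a1 (1333.19, 354.2 and 481.63 FPKM) and Col1a2 (2688.49, 998.91 and 1256.6 FPKM), the matrix gene Sparc (649.22, 461.86 and 507.94 FPKM) and the lineage factor Runx2 (26.77, 17.14 and 22.97 FPKM) were present, and the matrix protein gene Spp1 reached 1261.19, 3705.78 and 4659.49 FPKM. The remaining markers of the 8 were low, with Ibsp at 0.04 FPKM or less, Sp7 at 0.63 or less and Alpl at 1.51, 0.2 and 0.2. Of 6 adipocyte markers, Plin1 and Cidec were not listed and Adipoq, Lep, Fabp4 and Cebpa stayed under 1 FPKM, the highest value being 0.92. Of 5 macrophage markers, Ptprc and Adgre1 were not listed, Cd68 reached at most 0.42 and Csf1r at most 0.1 FPKM, while Lyz2 stood at 26.72, 14.76 and 12.42. The endothelial genes Cdh5 and Kdr and the myoblast genes Myod1 and Myf5 were not listed, and Pecam1 and Des reached at most 0.24 and 1.05 FPKM. In bulk RNA, fewer cells of a kind and less RNA per cell cannot be told apart.

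Promoters are shown as a description of genes from both routes, and that of Elovl6 was added because its level stood apart with particles. The sequences are the 250 bases before the start of the gene in RefSeq on GRCm38.p6, 5′ to 3′ on the strand of the gene. Capitals mark CCAAT, the box that NF-Y reads, on either strand, where the other strand shows ATTGG, and CACNCCAC, SREBP-type letters, on either strand. Hmgcs1 (chr13:119690101-119690350, plus strand), Idi1 (chr13:8885356-8885605, plus strand) and Insig1 (chr5:28071162-28071411, plus strand) are genes of the sterol route, and Fasn (chr11:120824548-120824797, minus strand) and Elovl6 (chr3:129532136-129532385, plus strand) are genes of the fatty acid route.
Hmgcs1: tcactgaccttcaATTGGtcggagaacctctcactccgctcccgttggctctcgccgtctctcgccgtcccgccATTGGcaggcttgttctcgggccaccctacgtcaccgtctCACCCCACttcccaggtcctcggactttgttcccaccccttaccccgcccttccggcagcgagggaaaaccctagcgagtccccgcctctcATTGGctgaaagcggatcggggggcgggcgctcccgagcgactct
Idi1: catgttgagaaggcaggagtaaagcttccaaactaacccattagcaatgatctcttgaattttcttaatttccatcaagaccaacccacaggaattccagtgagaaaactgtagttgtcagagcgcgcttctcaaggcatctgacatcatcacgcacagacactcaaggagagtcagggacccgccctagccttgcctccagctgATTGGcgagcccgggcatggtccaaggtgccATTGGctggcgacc
Insig1: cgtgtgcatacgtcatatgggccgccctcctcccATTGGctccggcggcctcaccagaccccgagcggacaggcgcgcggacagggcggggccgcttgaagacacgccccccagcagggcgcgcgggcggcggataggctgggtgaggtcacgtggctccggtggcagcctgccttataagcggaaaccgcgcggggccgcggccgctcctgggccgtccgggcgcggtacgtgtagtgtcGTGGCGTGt
Fasn: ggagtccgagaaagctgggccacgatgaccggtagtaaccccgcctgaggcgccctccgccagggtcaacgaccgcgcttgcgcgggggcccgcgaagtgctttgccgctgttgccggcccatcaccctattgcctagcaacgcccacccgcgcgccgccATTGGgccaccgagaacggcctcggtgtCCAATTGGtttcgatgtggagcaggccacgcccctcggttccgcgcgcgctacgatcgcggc
Elovl6: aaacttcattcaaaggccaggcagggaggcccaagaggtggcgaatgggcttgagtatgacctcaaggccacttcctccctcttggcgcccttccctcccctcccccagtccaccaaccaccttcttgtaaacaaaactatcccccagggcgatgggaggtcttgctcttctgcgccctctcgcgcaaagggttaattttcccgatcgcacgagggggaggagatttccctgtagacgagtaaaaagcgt

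The Hmgcs1 window held 3 CCAAT boxes and 1 match to CACNCCAC, 136 bases before the start. In Idi1 there were 2 CCAAT boxes, 45 and 14 bases before the start, and Insig1 had 1 together with a CACNCCAC match 9 bases before the start. Fasn held 3 CCAAT boxes, of which those 62 and 59 bases before the start overlap on opposite strands, and Elovl6 held none of these letters. Of the 40 genes, 33 had a promoter in the table used, and Fads1, Fdft1, Fdps, Scd1, Scd2, Sqle and Stard4 had none. CCAAT on either strand was present in 16 of 17 sterol enzymes (94.1%, all but Acat2), in 5 of 9 fatty acid enzymes (55.6%) and in 41.6% of the 8976 promoters of genes at 1 FPKM or more. Among genes with a single annotated start the shares were 14 of 15, 4 of 8 and 38.3%. CACNCCAC was found in 3 of the 33 (Acat2, Hmgcs1 and Insig1) against 6.41% of the 8976, and TCACNCCA, which overlaps it by 7 letters, also in 3 (Hmgcs1, Msmo1 and Srebf2) against 3.93%. The GC box GGGCGG was present in 26 of 33 against 65.5%, and the E-box CANNTG in 21 of 33 against 60.1%. A match is a run of letters and not a bound site, and whether these letters bear on the levels was not tested.

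In the first steps of the sterol route, from acetyl-CoA to the isoprenoids, 7 of 8 genes were higher in Ti+Se-Met than in Ti (all genes 38.5%). Against CTL, 5 of these 8 were higher in Ti+Se-Met (all genes 51.0%). Hmgcs1, the synthase that makes HMG-CoA, stood at 65.43, 42.9 and 55.53 FPKM. Idi1, which interconverts the isoprenoid units IPP and DMAPP, followed the same order with 40.36, 25.88 and 37.6 FPKM. Both were lowest in Ti. With Se-Met, Hmgcs1 stayed below CTL at 0.849 (0.801 to 0.9), and Idi1 was within counting error of it at 0.932 (0.863 to 1.01). Their folds were 0.656 (0.619 to 0.694) and 0.641 (0.593 to 0.693) in Ti against CTL, and with Se-Met they stood at 1.29 (1.21 to 1.38) and 1.45 (1.34 to 1.58) times Ti. Acat2, the cytosolic thiolase that opens the route, stood at 48.0, 46.66 and 66.1 FPKM and Fdps, which makes farnesyl diphosphate, at 142.57, 151.9 and 200.29. These 2 genes were near their CTL level in Ti and above both other libraries in Ti+Se-Met, with folds against Ti of 1.42 (1.32 to 1.53) and 1.32 (1.25 to 1.39). Acat3, a near-identical copy of Acat2 with which reads may be shared, was at 11.35, 13.95 and 11.43 FPKM.

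Mevalonate is phosphorylated by Mvk and Pmvk, and Mvd removes its carboxyl group. Mvk was at 33.7, 29.73 and 36.27 FPKM, and Pmvk at 19.0, 16.74 and 23.29, so that both were lowest in Ti. Mvd stood apart from the route with 13.29, 21.77 and 25.81 FPKM. It was 1.64 times CTL in Ti (1.42 to 1.89) and 1.94 times CTL in Ti+Se-Met (1.67 to 2.26), and was the only sterol enzyme at 1.5-fold or more above CTL in either. Ggps1, which makes geranylgeranyl diphosphate for protein prenylation and so leads away from cholesterol, was at 9.49, 7.97 and 6.92 FPKM. It was the one sterol enzyme lower with Se-Met than with particles alone, at 0.868 of the Ti level with an interval of 0.748 to 1.01 that includes 1.

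**Figure D1:**
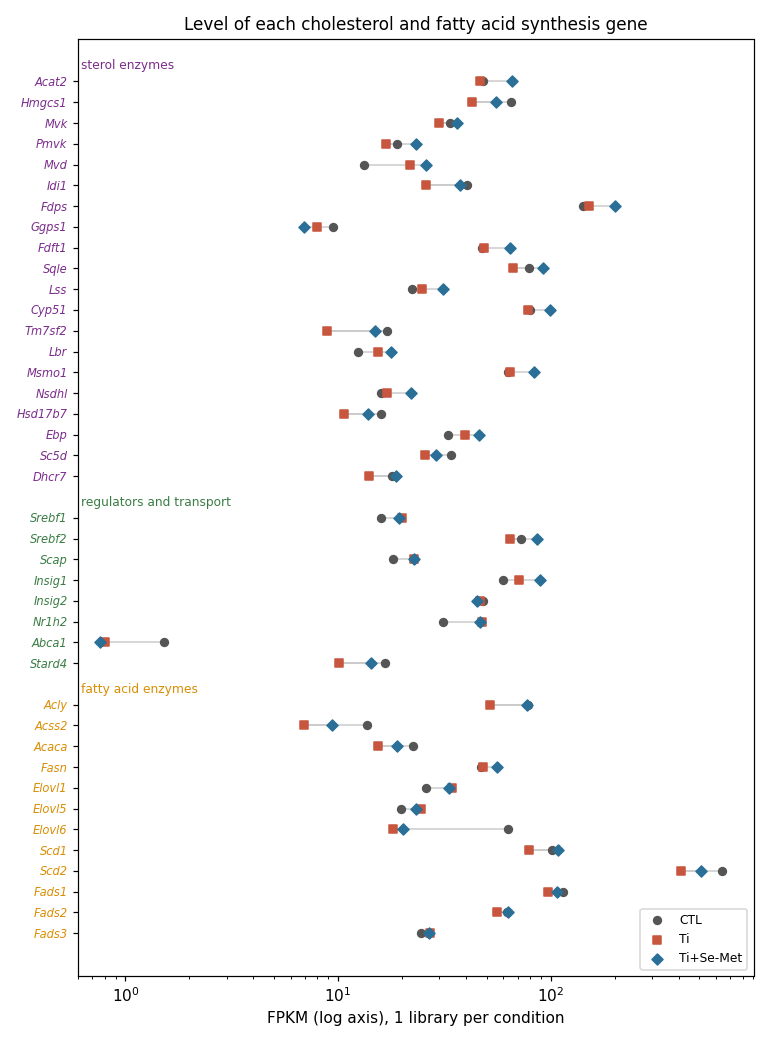
FPKM of the 40 genes on a log axis, one row per gene and one marker per library (circle CTL, square Ti, diamond Ti+Se-Met), grouped by role, with 1 library per condition and so no error bars. The diamond lies farthest to the right in 14 of 20 sterol enzymes and in 3 of 12 fatty acid enzymes, and Elovl6 shows the widest gap between CTL and Ti. The share of all genes highest in Ti+Se-Met was not counted.

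From squalene on, all 12 enzymes were higher in Ti+Se-Met than in Ti (all genes 38.5%), with log2 differences of 0.17 to 0.69. Sqle, the epoxidase that commits squalene to sterols, was at 78.85, 66.76 and 91.7 FPKM, and was 1.37 times its Ti level with Se-Met (1.3 to 1.45). Cyp51, the lanosterol demethylase, was at 80.14, 78.23 and 99.38 FPKM. Fdft1, which makes squalene, was at 47.77, 48.55 and 64.15. These were highest in Ti+Se-Met, and Cyp51 and Fdft1 were within counting error of CTL in Ti, with folds of 0.976 (0.936 to 1.02) and 1.02 (0.961 to 1.08). Msmo1, the sterol C4 methyl oxidase, was at 62.77, 64.07 and 83.77 FPKM, and Nsdhl, which works beside it, at 15.85, 17.0 and 22.16, also highest in Ti+Se-Met. Their folds against Ti were 1.31 (1.22 to 1.4) and 1.3 (1.15 to 1.48).

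Lss, which closes the ring to lanosterol, was at 22.37, 24.89 and 31.32 FPKM, Ebp, the sterol isomerase, at 32.98, 39.69 and 46.25, and Lbr at 12.44, 15.36 and 17.84. These 3 stepped up from CTL to Ti and again to Ti+Se-Met, and each interval of either step lay above 1, although Lss was below CTL in Ti after scaling to TPM. Tm7sf2 and Lbr encode the sterol C14 reductases, and Lbr also anchors chromatin at the nuclear envelope. Tm7sf2 went the other way from Lbr in Ti, with levels of 17.03, 8.9 and 14.98 FPKM. Its fold was 0.523 in Ti against CTL (0.431 to 0.631). With Se-Met it was 1.68 times Ti (1.37 to 2.07), the largest ratio of the 40 genes in that comparison, resting on 321, 170 and 207 fragments. Hsd17b7, the 3-ketosteroid reductase, was at 15.92, 10.72 and 13.78 FPKM, Sc5d, the C5 desaturase, at 34.01, 25.6 and 28.88, and Dhcr7, which makes cholesterol in the last step, at 17.98, 14.01 and 18.73. All 3 were lowest in Ti, with folds of 0.673 (0.61 to 0.742), 0.753 (0.707 to 0.802) and 0.779 (0.695 to 0.874) against CTL, and only Dhcr7 was back at its CTL level with Se-Met.

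Counted as a group on the values as deposited, the 20 sterol enzymes showed little common direction with particles alone and a common one with Se-Met. In Ti against CTL, 8 were higher and 12 lower, with a median log2 difference of -0.11, where 55.3% of all genes were higher. Other scalings put 14 to 17 of the 20 lower there, where 5558 to 6649 of the 11137 genes were. As deposited, the interval lay above 1 in 5, against 42.9% of all genes, and below 1 in 9, against 32.0%. With Se-Met set against particles alone, 19 of 20 were higher, where 38.5% of all genes were, and the median was 0.36. The interval lay above 1 in the same 19 genes, against 15.7% of all genes, and below 1 in none, against 29.2%. Single changes were small, since 15 of 20 reached 1.2-fold higher, against 7.99% of all genes, and 1, Tm7sf2, reached 1.5-fold higher, against 0.844%. Against CTL, 14 of 20 were higher in Ti+Se-Met, where 51.0% of all genes were, with a median of 0.29, and the interval lay above 1 in 12 (all genes 36.0%) and below 1 in 4 (all genes 33.4%). Summed over the 20 genes, the FPKM were 809.9, 757.3 and 984.8.

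**Figure D2:**
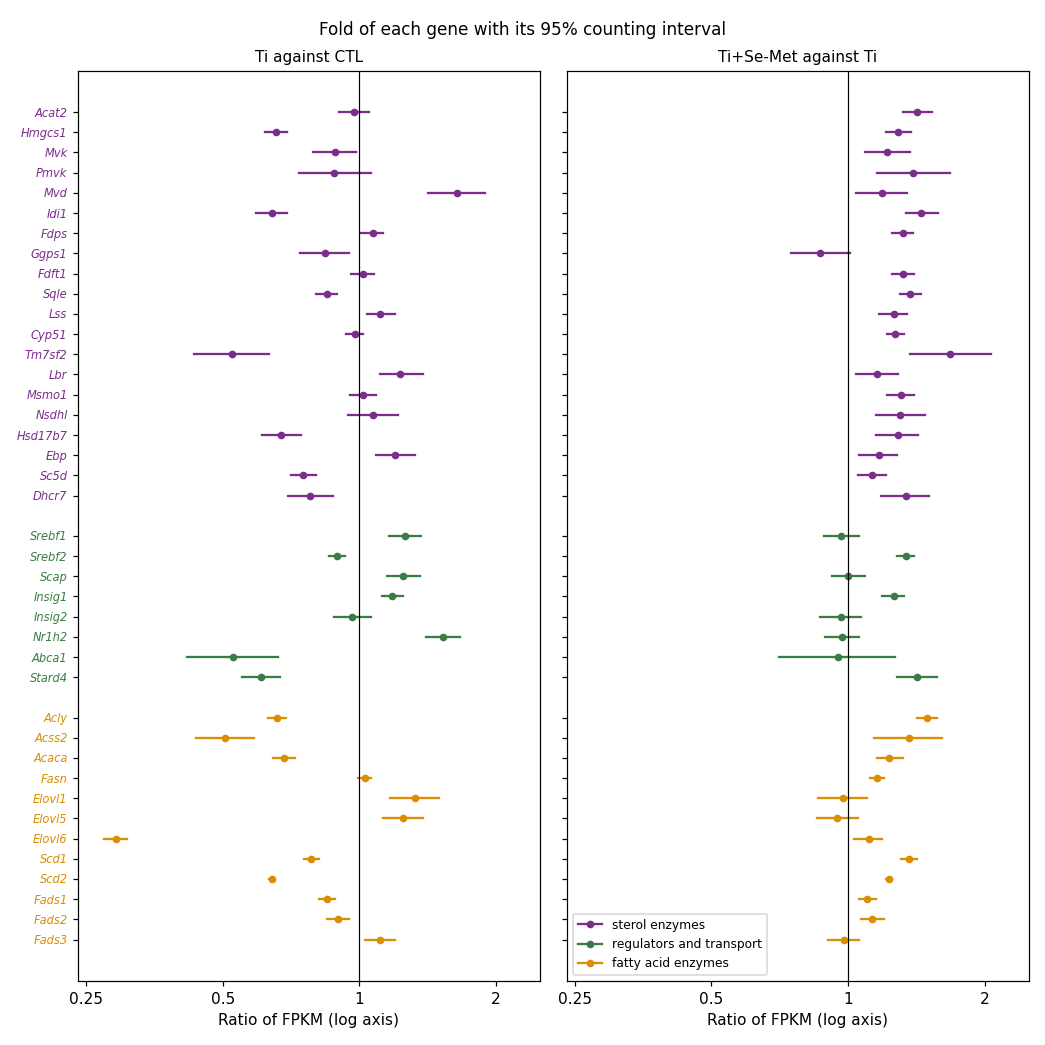
Ratio of FPKM for each of the 40 genes on a log axis, for Ti against CTL (left) and Ti+Se-Met against Ti (right), with points for the ratio, lines for the 95% interval of counting error, and colours for the role. On the right, 19 of 20 sterol enzymes lie above 1 with their interval (all genes 15.7%). On the left the genes lie on both sides, with Elovl6 lowest at 0.291.

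Of the 8 regulators and transport genes, 4 were higher in Ti+Se-Met than in Ti, where 38.5% of all genes were, and 3 of them had an interval above 1, against 15.7%. Srebf2, which encodes SREBP-2 and is itself among its targets, was at 72.39, 64.7 and 86.61 FPKM. Insig1, the INSIG gene that SREBP induces, was at 59.86, 70.77 and 89.22. Both were highest in Ti+Se-Met, at 1.34 (1.28 to 1.4) and 1.26 (1.19 to 1.33) times the Ti level. Stard4, which carries cholesterol between membranes, was at 16.59, 10.07 and 14.26 FPKM, with a fold of 0.607 (0.552 to 0.667) in Ti against CTL, and 1.42 (1.28 to 1.57) between the treated libraries.

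The other 5 regulators had intervals that include 1 in Ti+Se-Met against Ti. Srebf1, which encodes SREBP-1, was at 15.91, 20.06 and 19.39 FPKM, a fold of 1.26 over CTL in Ti (1.16 to 1.37) and 0.967 over Ti with Se-Met (0.884 to 1.06). Insig2, the second INSIG gene, was at 48.26, 46.56 and 44.89 FPKM, and its intervals include 1 in every comparison. Scap was at 18.15, 22.73 and 22.79, higher with particles and level between the treated libraries. Nr1h2, which encodes LXRβ, was at 31.27, 47.75 and 46.41 FPKM, 1.53 times CTL in Ti (1.4 to 1.67) and 0.972 of Ti with Se-Met (0.891 to 1.06). Abca1, the cholesterol efflux pump that LXR induces, had only 1.52, 0.8 and 0.76 FPKM and 219, 117 and 80 fragments. Its fold in Ti against CTL was 0.526 (0.417 to 0.662), so the receptor gene was higher and the efflux gene lower with particles. On the log2(FPKM + 1) scale Abca1 differed by -0.49, below the 1.5-fold threshold, because the added 1 shrinks the ratio of a low gene.

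Fatty acid synthesis starts with the supply of cytosolic acetyl-CoA, and these genes were lowest in Ti. Acly, which cleaves citrate, stood at 78.69, 51.87 and 77.34 FPKM. Its fold was 0.659 in Ti against CTL (0.63 to 0.689). With Se-Met it was 1.49 times Ti (1.42 to 1.57) and 0.983 of CTL (0.94 to 1.03). Acss2, which makes acetyl-CoA from acetate, was at 13.65, 6.91 and 9.37 FPKM, and Acaca, the carboxylase that makes malonyl-CoA, at 22.59, 15.41 and 19.02. Both stayed below CTL with Se-Met, at 0.686 (0.591 to 0.796) and 0.842 (0.793 to 0.894). Fasn, the synthase that makes palmitate, did not share the low level in Ti, with 46.83, 48.1 and 55.69 FPKM and a fold of 1.03 (0.993 to 1.06). With Se-Met it stood at 1.16 times its Ti level (1.12 to 1.2).

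The Δ9 desaturases Scd1 and Scd2, which make oleate and palmitoleate, were among the most abundant of the 40 genes. Scd2 was the highest of all with 643.19, 412.4 and 508.24 FPKM, and Scd1 was at 101.14, 79.31 and 108.06. Both were lowest in Ti, at 0.641 (0.632 to 0.65) and 0.784 (0.756 to 0.813) of CTL, and higher with Se-Met, at 1.23 (1.21 to 1.25) and 1.36 (1.31 to 1.42) times Ti. Scd1, Scd2 and the low Scd4 (2.71, 0.85 and 1.83 FPKM) are close copies, so reads may have been split between them. The front-end desaturases of polyunsaturated fatty acids moved less. Fads1 was at 114.36, 97.23 and 107.21 FPKM and Fads2 at 62.06, 55.76 and 63.19, with folds of 1.1 (1.06 to 1.15) and 1.13 (1.07 to 1.2) in Ti+Se-Met against Ti. Fads3 was at 24.46, 27.18 and 26.65, level between the treated libraries at 0.981 (0.903 to 1.06).

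The 3 elongases did not move together. Elovl6 had levels of 62.7, 18.22 and 20.17 FPKM. Its fold against CTL was 0.291 in Ti (0.274 to 0.308) and 0.322 in Ti+Se-Met (0.302 to 0.342), and Ti+Se-Met stood at 1.11 times Ti (1.03 to 1.19). With Se-Met its level was thus close to that in Ti, while that of Acly was at its CTL level. Elovl1, which makes very long saturated chains, was at 25.82, 34.27 and 33.39 FPKM, and Elovl5, which lengthens polyunsaturated chains, at 19.7, 24.57 and 23.2. These 2 were higher with particles, at 1.33 (1.17 to 1.5) and 1.25 (1.13 to 1.38) times CTL, and within counting error of Ti with Se-Met.

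The 12 fatty acid enzymes together were more often lower than higher with particles. In Ti against CTL, 4 were higher and 8 lower, with a median log2 difference of -0.29, where 55.3% of all genes were higher. The interval lay above 1 in 3 (all genes 42.9%) and below 1 in 8 (all genes 32.0%). With Se-Met, 9 of 12 were higher than in Ti (all genes 38.5%) with a median of 0.19. The interval lay above 1 in the same 9 (all genes 15.7%), and 5 reached 1.2-fold higher (all genes 7.99%). Against CTL, Ti+Se-Met had 6 higher and 6 lower, with a median of 0.00, near all genes (51.0% higher, median 0.01). The 6 enzymes from acetyl-CoA to palmitate and oleate (Acly, Acss2, Acaca, Fasn, Scd1 and Scd2) were all higher in Ti+Se-Met than in Ti, by 0.21 to 0.57 with a median of 0.35, close to the median of the sterol enzymes. The other 6, the elongases and Fads genes, had a median of 0.06 and a range of -0.08 to 0.18. This division was made after the values were seen. Summed FPKM of the 12 were 1215.2, 871.2 and 1051.5, and Scd2 made up most of the difference between libraries.

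Set against each other, the sterol enzymes had the higher median in every comparison. The median of the sterol enzymes less that of the fatty acid enzymes was 0.18 on the log2 scale for Ti against CTL, 0.29 for Ti+Se-Met over CTL and 0.17 for Ti+Se-Met over Ti. Without Elovl6 the values were 0.13, 0.27 and 0.16. The distance of single genes around these medians was wider, from -0.86 to 0.67 for sterol and from -1.73 to 0.40 for fatty acid enzymes in Ti against CTL, so the groups overlapped. They overlapped as well between the treated libraries, from -0.18 to 0.69 and from -0.08 to 0.57. With 1 library per condition the difference between the groups was not tested.

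**Figure D3:**
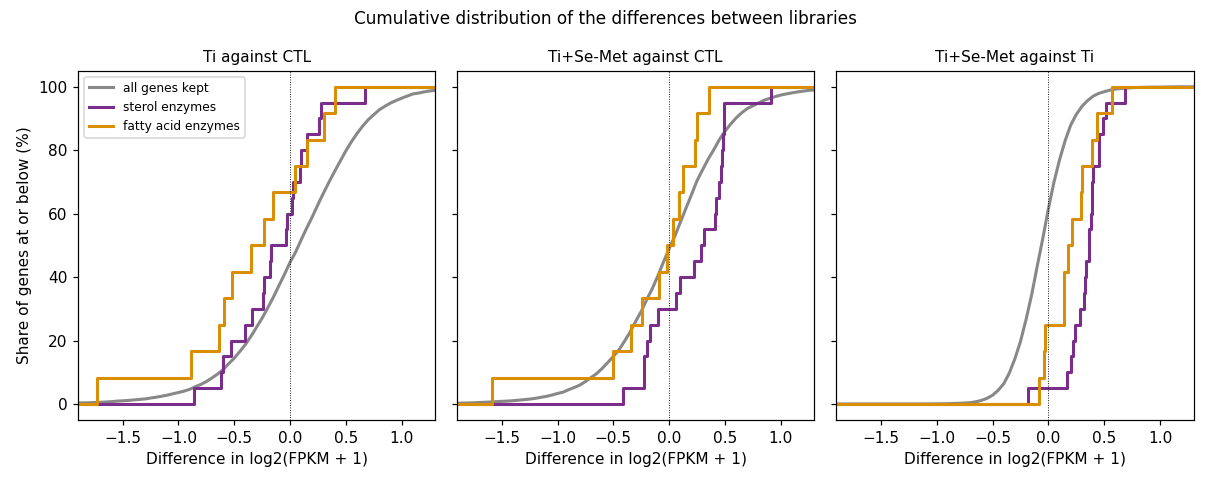
Share of genes (%) at or below each difference in log2(FPKM + 1), for the 3 comparisons, with the 11137 genes kept in grey, the 20 sterol enzymes in purple and the 12 fatty acid enzymes in orange. With Se-Met against particles alone both groups lie to the right of all genes, with medians of 0.36 and 0.19 against -0.06, and in Ti against CTL both lie to the left.

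Few of the 40 genes passed a larger threshold. At 2-fold there was 1 of 40 in Ti against CTL (7.26% of all genes), 1 in Ti+Se-Met against CTL (5.96%), Elovl6 both times, and 0 between the treated libraries (0.224%). At 1.5-fold in Ti against CTL, 2 were higher (Mvd and Nr1h2), against 15.5% of all genes, and 8 lower (Hmgcs1, Idi1, Tm7sf2, Stard4, Scd2, Acly, Acss2 and Elovl6), against 11.3%. In Ti+Se-Met against CTL, Mvd was the 1 gene higher at 1.5-fold (10.4% of all genes) and Elovl6 the 1 lower (11.7%). Thus 7 of the 8 genes that were low in Ti were within 1.5-fold of CTL with Se-Met, although Acss2 was past 1.5-fold lower at -0.68 after scaling to TPM. The 8 were picked by their low value in Ti, and that choice alone favours values nearer CTL in another library. How many of all genes so picked were within 1.5-fold of CTL with Se-Met was not counted. Between the treated libraries no gene was lower by 1.5-fold, against 1.28% of all genes.

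The direction in comparisons with CTL depended on how the libraries were scaled. The FPKM summed to 448285.4 in CTL and 526016.9 in Ti, and scaling to equal sums (TPM) moved the median of all genes from 0.08 to -0.13. The number of sterol enzymes higher in Ti was then 3, in place of 8, where 4486 of the 11137 genes were, in place of 6159. Fdps, Fdft1, Lss, Msmo1, Nsdhl, Fasn and Fads3 changed sign. Scaled by median of ratios, 6 sterol enzymes were higher in Ti and 14 lower, and by upper quartile 4 and 16. Of all genes, 5577 and 5177 were then higher. Ti+Se-Met set against CTL depended on it too. With TPM the median of the sterol enzymes was 0.10 in place of 0.29, with 12 higher in place of 14. The fatty acid enzymes had 3 higher and 9 lower with a median of -0.20. Of all 11137 genes, 3981 were then higher, with a median of -0.17. Mvk, Dhcr7, Scd1, Fads2 and Fads3 changed sign. Under every scaling tried, 19 of 20 sterol enzymes were higher in Ti+Se-Met than in Ti, with medians of 0.36 to 0.43. The number of all genes higher there moved with the scaling, from 4289 to 5612 of 11137. The members that changed sign were Srebf1, Insig2, Nr1h2, Elovl1 and Fads3, each with an interval that includes 1.

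Genes that neighbour the route were followed to see how far the pattern reached. Of 38 other lipid genes 36 were kept, and in Ti+Se-Met against Ti 18 were higher and 18 lower, where 38.5% of all genes were higher. The median was -0.02, with 1 past 1.5-fold higher (all genes 0.844%) and 0 lower (all genes 1.28%). In Ti against CTL, 20 were higher and 16 lower with a median of 0.06, where 55.3% of all genes were higher. There 4 were past 1.5-fold higher (all genes 15.5%) and 4 lower (all genes 11.3%). The 1 past 1.5-fold with Se-Met was Acsl3, an acyl-CoA synthetase of the endoplasmic reticulum and lipid droplets, at 41.8, 23.6 and 39.19 FPKM, low in Ti alone as Acly was. The proteases that release SREBPs, Mbtps1 (34.79, 30.37 and 32.37 FPKM) and Mbtps2 (11.42, 10.0 and 10.11), were nearly level between the treated libraries. Of 8 fatty acid oxidation genes, 2 were higher and 6 lower in Ti+Se-Met against Ti, with a median of -0.11, and of 7 genes that use isoprenoids 3 were higher and 4 lower, with a median of -0.19. Over all genes 38.5% were higher. Npc1 (25.97, 36.76 and 41.04 FPKM) and Npc2 (85.86, 111.68 and 126.94), which export cholesterol from lysosomes, and Soat1 (16.02, 26.2 and 23.43), which esterifies it, were higher with particles than in CTL, while Lipa, the lysosomal lipase that frees cholesterol from its esters, was lower (56.04, 40.97 and 40.99).

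The KEGG labels in the table gave a wider set. Other genes labelled for steroid or terpenoid backbone synthesis numbered 20, of which 18 were kept, and 8 were higher and 10 lower in Ti+Se-Met against Ti, with a median of -0.12. For the fatty acid labels 32 of 41 were kept, with 13 higher, 19 lower and a median of -0.08. Over all genes 38.5% were higher in that comparison and the median was -0.06, so both sets were near all genes. In Ti against CTL these sets had medians of 0.23 and 0.16, where that of all genes was 0.08. Together with the other lipid genes they made 71 genes, of which 9 were past 2-fold in some comparison. Of all genes 7.26% were past 2-fold in Ti against CTL, and the share past it in any comparison was not counted. Lower with particles were Hacd4, a dehydratase of chain elongation (39.95, 14.09 and 17.51), Acadm, the medium-chain acyl-CoA dehydrogenase (95.86, 43.03 and 45.8), Idh1, a source of cytosolic NADPH (58.7, 27.49 and 35.59), and Scd4. Higher with particles were the thioesterases Acot2 (4.57, 12.35 and 7.53 FPKM) and Acot4 (0.19, 1.84 and 1.24), the mitochondrial enoyl reductase Mecr (7.55, 16.58 and 15.66), and Acsbg1 (0.05, 0.98 and 1.43), with Acot4 and Acsbg1 at levels near 1 FPKM. Acot2 has a near-identical copy with which reads may be shared.

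**Figure D4:**
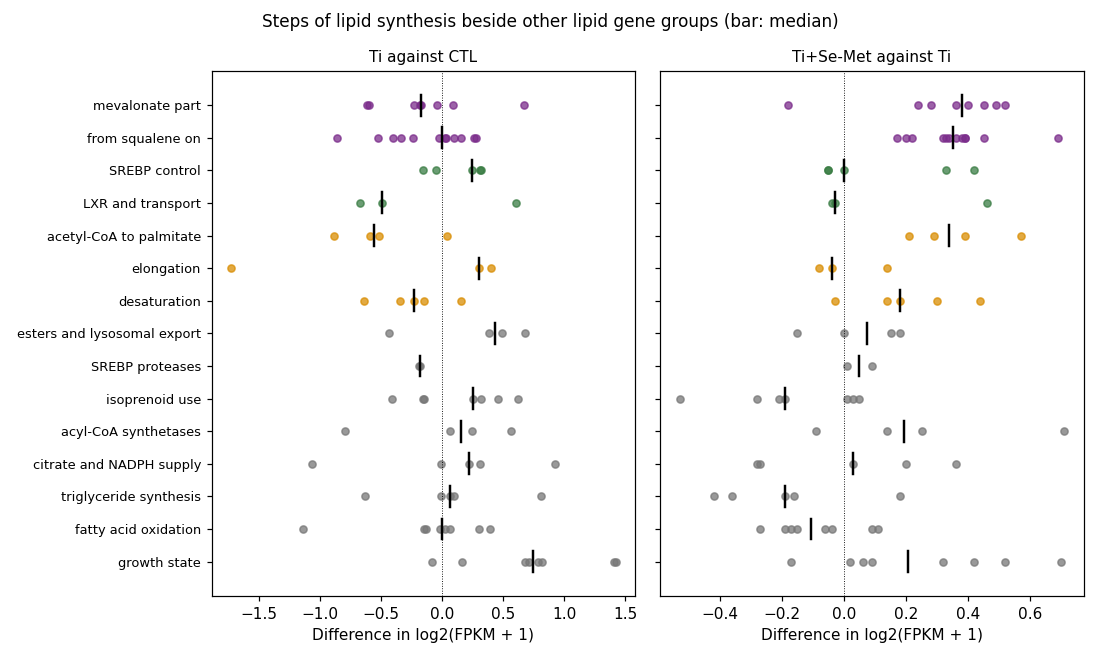
Difference in log2(FPKM + 1) for each gene (points) by step of lipid synthesis (coloured) and by other gene group (grey), for Ti against CTL (left) and Ti+Se-Met against Ti (right), with black bars for the median of a group. In the right panel all 12 genes from squalene on and all 4 from acetyl-CoA to palmitate lie above 0, where 38.5% of all genes did.

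Growth genes also differed between the libraries. Of 8 genes of DNA replication and mitosis, 7 were higher in Ti than in CTL (all genes 55.3%) with a median of 0.74. All 8 were higher in Ti+Se-Met than in CTL (all genes 51.0%) with a median of 0.92. Between the treated libraries, 7 were higher with Se-Met (all genes 38.5%) and 1 lower, with a median of 0.21 and a range of -0.17 to 0.70. The mitotic genes Mki67 (17.33, 16.29 and 27.18 FPKM) and Top2a (29.95, 33.66 and 48.65) had the largest differences, and the replication genes Mcm2 (13.68, 38.36 and 33.9) and Pcna (83.73, 144.0 and 150.63) small ones. The collagen and Runx2 levels given above were also somewhat higher in Ti+Se-Met than in Ti. The part of growth or of cell state in the levels of the sterol enzymes was not tested.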

How the data were processed

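The authors aligned RNA-seq reads of the 3 libraries with HISAT2 and counted genes with HTSeq, and the submitters' processing notes also name SAMtools, StringTie and mm9. How the deposited FPKM values were made, whether from those counts or by StringTie, is not given in the sources used here, and neither is any scaling between libraries. They were rounded to 2 decimals, and the depth behind them is an estimate. The table gives no coordinates, so those of promoters come from RefSeq on GRCm38.p6.

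Differences in log2(FPKM + 1) were computed in Python 3.11.15 with numpy 2.4.6, pandas 2.3.3 and scipy 1.17.1, and figures drawn with matplotlib 3.10.9. A gene was kept where any of its FPKM values reached 1. Depth was read from 453 genes with 1 transcript of 350 to 1000 bases, less 150 bases, with lengths of GENCODE M21 matched by RefSeq accession for 98.0% of the genes kept. With these lengths the values added up to 102.3% of the fragments in CTL and 104.2% in each treated library, which checks the lengths and not the depth. Depths with a similar fit ran from 13700000 to 14900000 for CTL, 14050000 to 15050000 for Ti and 9800000 to 10750000 for Ti+Se-Met. FPKM values are not counts, and 1 library per condition allowed no test.

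The genes and lists were chosen with earlier results of these data known. All 40 genes are named, with the markers, and of other lipid genes those past 2-fold in any comparison, which include the 2 largest rises and falls in Ti against CTL. Of these, 1 is not reported here. The 1.2-fold threshold, the promoter of Elovl6, and Acsl3, Acat3, Mbtps1, Mbtps2, Npc1, Npc2, Soat1, Lipa and the growth genes named were chosen after values were seen. As alternatives, pseudocounts were set to 0.1 or 5, the filter was dropped or set to a mean of 5 FPKM, libraries were scaled by TPM, upper quartile or median of ratios, the threshold was set to 1.5-fold, and means replaced medians.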

Additional observations from a re-analysis of the deposited data

How the results depend on the processing

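The median of the sterol enzymes stayed above that of the fatty acid enzymes under every alternative run, by 0.13 to 0.24 in Ti against CTL, 0.27 to 0.35 in Ti+Se-Met over CTL and 0.13 to 0.18 in Ti+Se-Met over Ti. These ranges include a wider sterol group with Stard4, Insig1, Insig2, Srebf2 and Scap, and a fatty acid group without Elovl6, both chosen after seeing the data. Of the 40 genes, 1 was past 2-fold between Ti and CTL, against 3 with TPM and 2 with upper-quartile scaling. A 1.5-fold threshold gave 10 there, and 2 in place of 1 between Ti+Se-Met and CTL. Between the treated libraries the number was 0 at 2-fold, 1 at 1.5-fold and 23 at 1.2-fold, the last threshold chosen after seeing the data. Over 5 alternatives of scaling and pseudocount for each of the 40 genes, the difference moved by more than the half-width of its counting interval in 78 cases between Ti and CTL, in 41 between Ti+Se-Met and CTL and in 14 between the treated libraries. The differences of Elovl6 past 2-fold kept their sign under each of these. No paired analysis was possible because only 1 library stood for a condition, which also left no library to omit. Depth limits the low genes most, with Abca1 resting on 80 fragments in Ti+Se-Met.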
